A study of Mus musculus with 6 samples.

Results

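The genes of antigen presentation by the major histocompatibility complex (MHC) were examined in livers of Fra-1hep mice, which the study describes as overexpressing the AP-1 transcription factor Fra-1 (encoded by Fosl1) in hepatocytes. The 32 members were the class I chains, the class I peptide-loading machinery, the immunoproteasome, the class II genes, 3 genes of lysosomal processing, and the class I-like molecules CD1d and MR1. Members were located through the RefSeq accession of each probe, and the brightest probe represented each gene. All 32 were found, cleared background on every array in each channel, and were tested among 22848 genes.

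Liver RNA of 5 single Fra-1hep mice on a C57BL/6J background, labelled with Cy5, was hybridised on Agilent 2-colour arrays against the Cy3-labelled RNA of a wild-type C57BL/6J pool. A further array carried a Fra-1hep pool in Cy3 against a wild-type pool in Cy5 and is called the dye-swapped array below. All animals were 26 to 28 weeks old and untreated, and the wild-type pool came from 5 chow-fed mice. The series design text counts 6 single Fra-1hep mice, whereas the sample labels give 5 mice and the pool. The promoter that drives the transgene, the diet of the Fra-1hep mice and the membership of the Fra-1hep pool are not given in the sources used here. The wild-type pool is 1 sample, so the spread between wild-type animals was not measured.

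In the Fra-1hep channel 48.5% to 58.9% of probes stood well above background, against 45% to 50.7% in the wild-type channel, and no spot was saturated. The probe for Fosl1 was well above background in neither channel on any array, so it showed no overexpression. Which part of the transcript it reads, and whether the transgene holds that part, was not examined, and Fra-1hep below means the samples so labelled. The arrays of mice 2 and 3 differed by 1.03 times the spread between replicate spots, while the other 9 mouse pairs differed by 1.87 to 2.47 times. They thus differed by about the noise between spots and entered as 1 averaged sample, so 4 Fra-1hep samples were counted. All 9 hepatocyte markers tested cleared background on every array in each channel. Every value below is a log2 ratio of Fra-1hep over wild type unless a signal is named, and the dye-swapped array was turned to the same direction. The fitted ratio is the midpoint between the mouse mean and the dye-swapped array, so that single array carries as much weight as the mice together. A gene is said to have risen or fallen where limma's moderated test gave a Benjamini-Hochberg adjusted p under 0.05 over all genes.

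MHC class I molecules display peptides from proteins made inside the cell to CD8 T cells, and nearly all nucleated cells carry them. The peptides are cut by the proteasome, whose immune form carries exchanged catalytic subunits, are pumped into the endoplasmic reticulum by the TAP transporter, trimmed there, and loaded onto a heavy chain paired with beta-2-microglobulin. MHC class II molecules display peptides from engulfed proteins to CD4 T cells. They are made mainly by professional antigen-presenting cells, which in liver include dendritic cells, B cells and Kupffer cells, the resident macrophages. The invariant chain holds the class II groove closed until lysosomal proteases degrade it and the DM chaperone exchanges its last fragment for peptide. Interferon-gamma raises both pathways through the regulators NLRC5 and CIITA, and promoters of both classes carry a module that includes a CCAAT-like box bound by NF-Y.

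The promoters of 5 members that fell are shown as examples, each with the letters of at least 1 element listed below. The list includes the AP-1 site, to which Fra-1 dimers bind. H2-T23, H2-DMa, Erap1 and Ctss, among others that fell, also hold such letters and are not shown. Each runs from 250 bases before to 50 bases after the annotated start, 5′ to 3′ on the gene's own strand, from RefSeq on GRCm38.p6. Capitals mark each match to CCAAT (NF-Y box), TGANTCA (AP-1 site), TGACGNCA (the cyclic AMP response element, with an open base), GAAA repeated after any 2 bases (interferon-stimulated response element) or GGG and TTCCC around any 2 bases (NF-kB site), on either strand, and no matches overlap in the windows shown.
H2-D1 (chr17:35262844-35263143, plus strand): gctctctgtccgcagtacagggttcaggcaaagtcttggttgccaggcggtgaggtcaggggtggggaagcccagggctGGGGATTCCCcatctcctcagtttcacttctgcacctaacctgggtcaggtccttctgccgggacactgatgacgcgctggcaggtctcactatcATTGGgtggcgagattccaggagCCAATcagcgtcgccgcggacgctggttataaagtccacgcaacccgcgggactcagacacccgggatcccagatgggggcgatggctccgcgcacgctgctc
Tap1 (chr17:34187306-34187605, plus strand): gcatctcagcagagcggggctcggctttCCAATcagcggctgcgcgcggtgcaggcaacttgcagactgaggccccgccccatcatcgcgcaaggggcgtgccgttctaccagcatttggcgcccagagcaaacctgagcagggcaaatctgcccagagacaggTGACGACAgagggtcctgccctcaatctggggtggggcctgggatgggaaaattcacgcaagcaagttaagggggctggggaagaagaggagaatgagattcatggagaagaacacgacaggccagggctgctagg
H2-Aa (chr17:34287774-34288073, minus strand): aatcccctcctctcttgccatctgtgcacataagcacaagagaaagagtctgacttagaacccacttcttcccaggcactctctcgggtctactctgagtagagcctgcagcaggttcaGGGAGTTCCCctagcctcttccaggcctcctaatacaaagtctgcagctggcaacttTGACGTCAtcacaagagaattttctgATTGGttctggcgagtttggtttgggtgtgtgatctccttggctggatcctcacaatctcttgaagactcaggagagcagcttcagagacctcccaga
H2-Eb1 (chr17:34305617-34305916, plus strand): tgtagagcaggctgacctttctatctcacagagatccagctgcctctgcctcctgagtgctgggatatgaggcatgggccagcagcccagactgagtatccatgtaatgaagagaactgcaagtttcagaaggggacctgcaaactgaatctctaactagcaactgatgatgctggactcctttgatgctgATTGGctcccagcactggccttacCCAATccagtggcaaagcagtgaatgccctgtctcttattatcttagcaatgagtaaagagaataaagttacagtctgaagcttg
H2-DMb1 (chr17:34152941-34153240, plus strand): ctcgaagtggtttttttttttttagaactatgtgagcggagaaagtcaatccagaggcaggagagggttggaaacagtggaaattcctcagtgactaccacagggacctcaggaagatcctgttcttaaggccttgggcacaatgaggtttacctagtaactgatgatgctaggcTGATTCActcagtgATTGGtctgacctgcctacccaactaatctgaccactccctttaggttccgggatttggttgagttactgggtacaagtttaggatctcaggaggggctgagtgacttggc
The H2-D1 window holds GGGGATTCCC from 171 to 162 bases before the start, in addition to CCAAT on each strand. In H2-Aa, TGACGTCA lies 74 to 67 bases before the start and a CCAAT match on the opposite strand 48 to 44 bases before it. H2-DMb1 holds TGATTCA, a match to the AP-1 letters, from 75 to 69 bases before its start. H2-Eb1 matched none of the searched letters except CCAAT, once on each strand. Of the 32 members, 25 had at least 1 window in the table, with 29 windows in all; Tap2, Tapbpl, Nlrc5, Ciita, Cd74, H2-Ab1 and Cd1d1 had none. CCAAT occurred in 18 of the 29 member windows, against 37.4% of all 32851 windows of the same length in the table. The corresponding figures were 7 of 29 against 1.75% for the NF-kB letters and 5 of 29 against 3.44% for the interferon-stimulated element. For the cyclic AMP response element they were 4 of 29 against 3.21%, and for AP-1 2 of 29 against 7.81%. By gene, CCAAT was found in 7 of 7 class I chains and 6 of 6 class II genes with a window, and the NF-kB letters in 4 and 2 of them. The CCAAT and NF-kB letters also occur in windows of H2-K1, H2-Q4 and H2-Q7, whose brightest probes did not pass the test. H2-K1, H2-DMa, Psme2 and Lgmn have several windows each, and those of the neighbours Tap1 and Psmb9 overlap. The class I chains are close paralogs, so the window counts include related promoters more than once. These shares describe letters, and binding was not measured.

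Most genes of antigen presentation read lower in Fra-1hep livers, by at most 1.65-fold, and the class II and lysosomal classes had the lowest medians. Of the 32 members 17 fell and 1, Mr1, rose, while 14 did not pass the test. Over all 22848 genes 12.5% passed, 6.51% lower and 5.97% higher, whereas 53.1% of the members fell. The median fitted log2 ratio of the members was -0.25, beside 0.01 over all genes. On all 6 arrays 21 members lay below wild type and 1 above it, where 12.7% of all genes lay below and 14.0% above on all 6. The fitted values ran from -0.73 for Ifi30 to 0.41 for Mr1. In whole liver, fewer cells of a type and less RNA per cell cannot be told apart. With each array centred on its median in place of loess, 8 members fell and 2 rose, and the split over all genes was 25.2% lower among the genes called, against 52.2% with loess. With the scanner software's own dye-normalised ratios, 7 fell and 1 rose, and fewer genes passed in all, as counted in the section on processing. From the mouse arrays alone, without a dye term, 20 fell and 1 rose, where 26.7% of all genes passed, 11.5% lower and 15.1% higher. With the slide as a fixed block, 13 fell and 1 rose, and 1 slide of the 3 held arrays of both dye orientations. For median centring, the scanner software's ratios and the slide block, the shares of all genes called are not set beside these member counts. Those counts therefore do not show whether the members passed more often than all genes did in these settings.

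**Figure D1:**
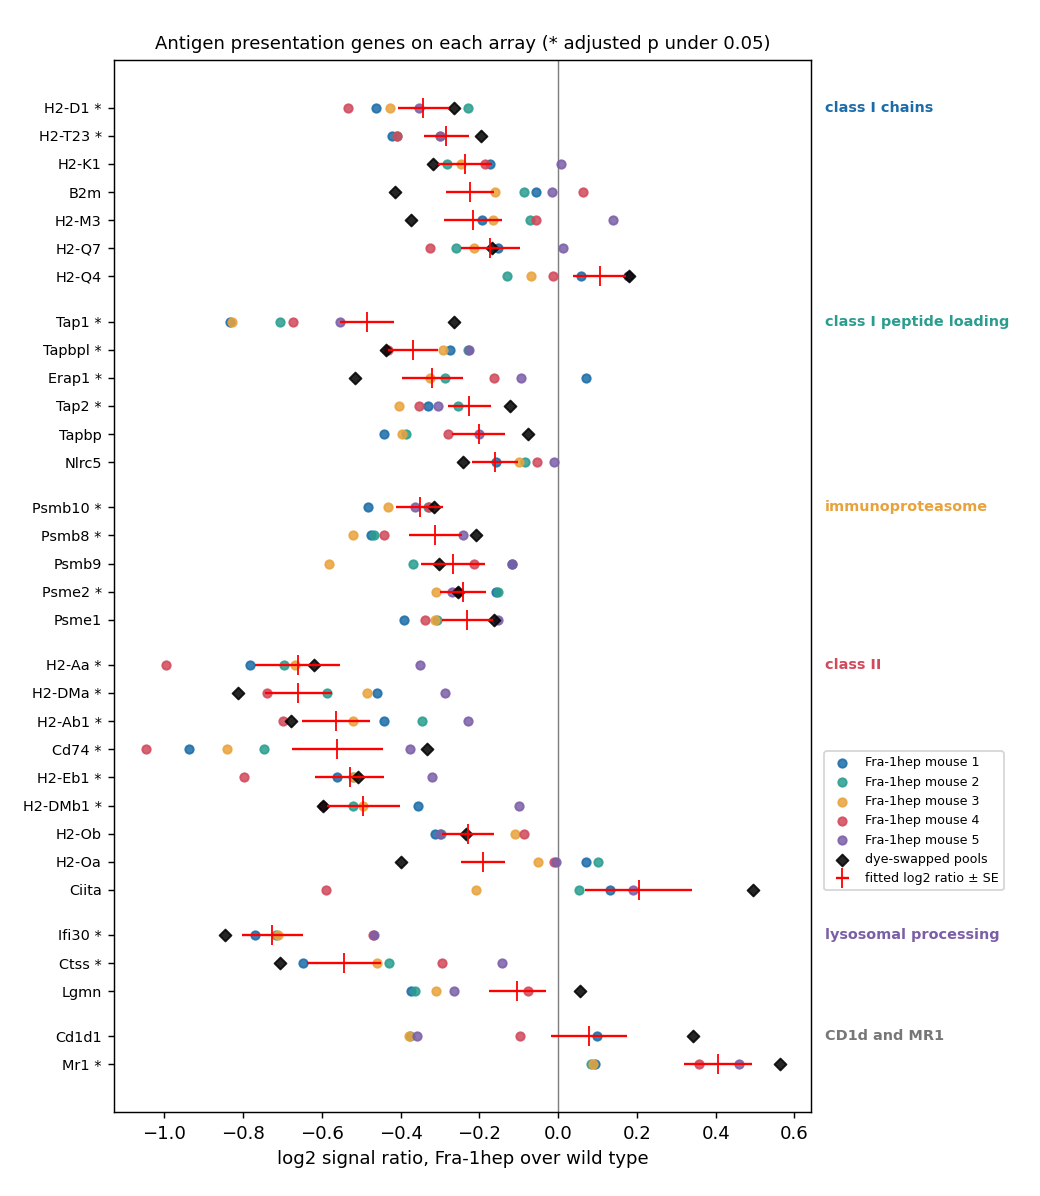
Log2 signal ratios of Fra-1hep over wild type for the 32 antigen presentation genes, in groups by role. Each point is 1 array (mice 1 to 5 in colours, the dye-swapped pools as a black diamond), and the red cross is the fitted ratio with its standard error; asterisks mark adjusted p under 0.05. Most points lie left of 0, class II and lysosomal genes farthest, and mouse 5 is the mouse nearest to 0 for each of the 6 class II genes that fell; with median centring Lgmn lies right of 0.

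Among the class I chains and beta-2-microglobulin, 2 of 7 fell and none rose, with a class median of -0.22 (-0.066 with median centring). H2-D1, a classical class I heavy chain, gave -0.46, -0.23, -0.43, -0.53 and -0.35 in mice 1 to 5 and -0.27 on the dye-swapped array. Its fitted ratio was -0.34 ± 0.06 (SE), 1.27-fold lower, at an adjusted p of 0.014 by limma, and all 6 arrays lay below wild type. H2-T23 encodes the heavy chain of Qa-1, a non-classical molecule that presents leader peptides to NK receptors. It gave -0.42, -0.41, -0.30, -0.41 and -0.30 in mice 1 to 5 and -0.20 on the dye-swapped array, so it was also below wild type on every array, by 1.22-fold with a limma adjusted p of 0.0192. Both calls were lost with median centring, at adjusted p-values of 0.172 and 0.285, and with the scanner software's ratios, at 0.0573 and 0.101. H2-D1 was called in 14 of the 16 alternatives and H2-T23 in 13.

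H2-K1, the other classical heavy chain of this strain, gave -0.17, -0.28, -0.25, -0.18 and 0.01 in mice 1 to 5 and -0.32 on the dye-swapped array. Mouse 5 was level with wild type and the other arrays were below it, and the fitted ratio of -0.24 missed the threshold at a limma adjusted p of 0.0622. A second H2-K1 probe, fitted among all probes, read -0.27 at an adjusted p of 0.0421. B2m, the shared light chain, gave -0.06, -0.09, -0.16, 0.06 and -0.01 in mice 1 to 5 and -0.42 on the dye-swapped array. The mice straddled 0 and the fitted value of -0.22 rested on the dye-swapped array, with a limma adjusted p of 0.0529. H2-M3, which presents formylated peptides, had -0.19 to 0.14 in the mice and -0.38 on the dye-swapped array. H2-Q7, a Qa-2 chain, had a fitted ratio of -0.17, and H2-Q4 one of 0.10, with mice from -0.13 to 0.18, and neither passed. H2-Q4 was called in 1 of the 16 alternatives, as higher with median centring (limma adjusted p = 0.0377). The class I chains are close paralogs, and how far each probe reads its neighbours' transcripts was not measured.

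In the peptide-loading machinery 4 of 6 members fell and none rose, with a class median of -0.27 (-0.16 with median centring). Tap1, a subunit of the peptide transporter, gave -0.83, -0.71, -0.83, -0.67 and -0.55 in mice 1 to 5 and -0.26 on the dye-swapped array. All arrays lay below wild type, the mice farther than the pool, and the fitted ratio was -0.49 ± 0.07 (SE), 1.40-fold lower, with a limma adjusted p of 0.00473. This call held under all 16 alternative settings. Tap2, the partner subunit, gave -0.33, -0.25, -0.40, -0.35 and -0.31 in mice 1 to 5 and -0.12 on the dye-swapped array. It was below wild type on all arrays as well, with a fitted -0.23 at a limma adjusted p of 0.0363. Its call was lost in 8 of the 16 alternatives. These included the fits without mouse 1 (0.0572), 3 (0.0574), 4 (0.0775) or 5 (0.0561) and with median centring (0.489).

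Tapbpl, the tapasin-related editor of class I peptides, gave -0.27, -0.23, -0.29, -0.43 and -0.23 in mice 1 to 5 and -0.44 on the dye-swapped array. These values lay close together and all below wild type, by 1.29-fold in the fit (limma adjusted p = 0.00996; 0.0628 with median centring). Erap1, the aminopeptidase that trims peptides in the endoplasmic reticulum, gave 0.07, -0.29, -0.33, -0.16 and -0.09 in mice 1 to 5 and -0.52 on the dye-swapped array. Mouse 1 lay above wild type and the pool was the lowest array. The fitted -0.32 (limma adjusted p = 0.0355) lost its call in 6 of the 16 alternatives. These included the fits without mouse 4 (0.0687), without mouse 5 (0.0573) and from the mouse arrays alone (0.225). Tapbp, or tapasin, which bridges TAP and the empty class I molecule, had a fitted ratio of -0.20 at a limma adjusted p of 0.0963. Its mice read -0.44, -0.39, -0.40, -0.28 and -0.20 and the dye-swapped array -0.08, all below wild type. Nlrc5, the class I transactivator, had -0.16 at an adjusted p of 0.129 by limma, and its second probe -0.02.

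Of the immunoproteasome genes 3 of 5 fell and none rose, and all 5 were below wild type on all 6 arrays. Psmb10, the catalytic subunit MECL-1, gave -0.48, -0.33, -0.43, -0.33 and -0.36 in mice 1 to 5 and -0.32 on the dye-swapped array. The arrays spread little, and the fitted value was -0.35 ± 0.06 (SE), with a limma adjusted p of 0.00923 that became 0.118 with median centring. Psmb8, the chymotrypsin-like subunit LMP7, gave -0.48, -0.47, -0.52, -0.44 and -0.24 in mice 1 to 5 and -0.21 on the dye-swapped array. Its fitted -0.31 (limma adjusted p = 0.0246) was not called without mouse 4 (0.0513), with median centring (0.166) or with the scanner software's ratios (0.0577). Psmb9, the subunit LMP2, had mice from -0.58 to -0.12, with -0.30 on the dye-swapped array. Its spread was wide for this group, and the fitted -0.27 did not pass (limma adjusted p = 0.0739). Psme1 and Psme2 encode the PA28 activator cap. Psme2 fell by 0.24 on the log2 scale at a limma adjusted p of 0.0333, with mice from -0.31 to -0.15. Its call was lost in 7 of the 16 alternatives. These included the fits without mouse 3 (0.0504), 4 (0.0706) or 5 (0.0584) and with the scanner software's ratios (0.104). Median centring, where it read -0.081 (0.473), was another. Psme1 read -0.23 with a limma adjusted p of 0.0603.

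Other proteasome genes served as a comparison within the same particle family. They were the constitutive subunits Psmb5, Psmb6 and Psmb7, subunits that both forms of the particle share, and the activator genes Psme3 and Psme4. Of these 16 genes 1 rose and none fell, with a median of -0.08. It was Psmb5, the subunit that Psmb8 replaces, with 0.67, 0.58, 0.46, 0.44 and 0.38 in mice 1 to 5 and 0.13 on the dye-swapped array (fitted 0.32, limma adjusted p = 0.0249). All 6 arrays lay above wild type for Psmb5 and below it for Psmb8. Within each array the log2 ratio of Psmb8 minus that of Psmb5 was -1.14, -1.05, -0.98, -0.89 and -0.62 in mice 1 to 5 and -0.34 on the dye-swapped array. The mean over mice was -0.92 ± 0.22 (SD, n = 4), and the exact two-sided sign-flip p of 0.125 is the smallest this design allows. Psmb9 minus Psmb6 averaged -0.21 ± 0.23 (SD, n = 4; exact p = 0.25) in the mice and was -0.07 on the dye-swapped array, below 0 on 5 of 6 arrays. Psmb10 minus Psmb7 averaged -0.08 ± 0.15 (SD, n = 4; exact p = 0.375) in the mice, less than its spread, and was -0.41 on the dye-swapped array, below 0 on 4 of 6. Psmb7 itself was below wild type in all mice, at -0.47 to -0.20, and at 0.09 on the dye-swapped array. With 4 counted samples this test could not have passed 0.05 for any of the 3 differences. These means and exact p-values use the mouse arrays alone, all with Fra-1hep in Cy5. Unlike the fitted ratios they have no dye term, so a dye effect on a gene is not removed from them.

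**Figure D2:**
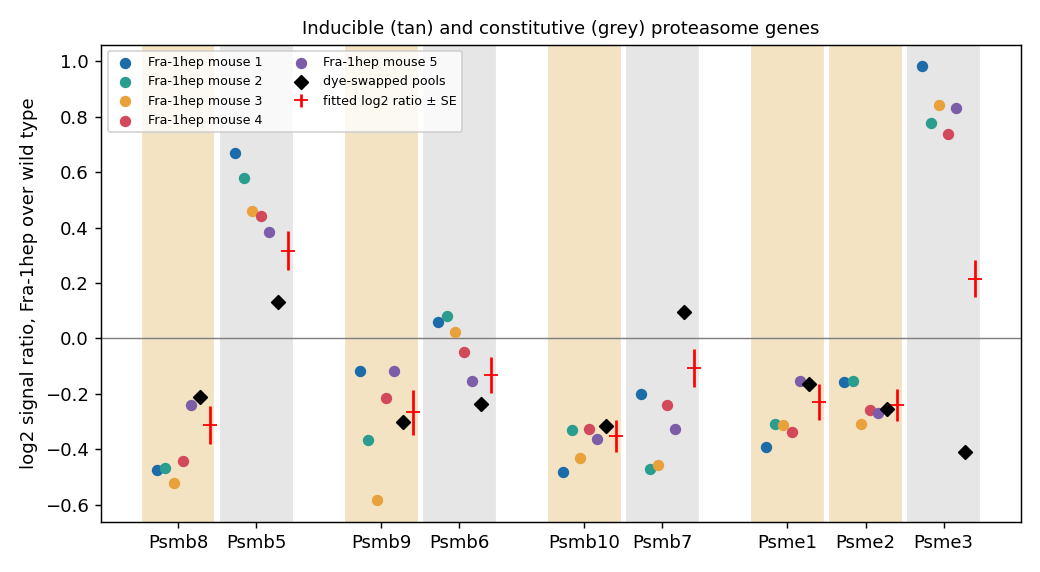
Log2 signal ratios of Fra-1hep over wild type for the immunoproteasome genes, the constitutive subunits Psmb5, Psmb6 and Psmb7, and the activator gene Psme3, with 1 point per array and the fitted ratio. All 6 arrays lie below 0 for Psmb8 and above 0 for Psmb5. Psme3 lies between 0.74 and 0.98 in the mice and at -0.41 on the dye-swapped array.

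Of the 9 class II genes 6 fell and none rose, with a median of -0.53. The 6 were the alpha and beta chains H2-Aa, H2-Ab1 and H2-Eb1, both DM chains, and Cd74. H2-Aa gave -0.78, -0.70, -0.67, -1.0 and -0.35 in mice 1 to 5 and -0.62 on the dye-swapped array. All arrays were below wild type, mouse 4 the lowest and mouse 5 the highest, and the fitted ratio was -0.66 ± 0.11 (SE), 1.58-fold lower, with a limma adjusted p of 0.00824. H2-Ab1, the beta chain that pairs with H2-Aa as I-A, gave -0.44, -0.34, -0.52, -0.70 and -0.23 in mice 1 to 5 and -0.68 on the dye-swapped array. All arrays were again below wild type, the fitted ratio was -0.56 with a limma adjusted p of 0.0064, and the call held under all 16 alternatives. The mean log2 signal of H2-Ab1 was 13.14 ± 0.19 in Fra-1hep and 13.60 ± 0.13 in wild type (SD over the 4 counted mouse samples and their pool hybridisations). H2-Eb1, the I-E beta chain, gave -0.56, -0.52, -0.52, -0.80 and -0.32 in mice 1 to 5 and -0.51 on the dye-swapped array. Its fitted ratio of -0.53 corresponded to 1.44-fold lower signal (limma adjusted p = 0.00856).

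Cd74, the invariant chain, gave -0.94, -0.75, -0.84, -1.05 and -0.38 in mice 1 to 5 and -0.33 on the dye-swapped array. Its mice spread the most among the 6 genes that fell, and mouse 5 and the pool lay nearest to wild type; the fitted ratio was -0.56 ± 0.12 (SE) with a limma adjusted p of 0.0202. H2-DMa, the alpha chain of the DM peptide exchanger, gave -0.46, -0.59, -0.49, -0.74 and -0.29 in mice 1 to 5 and -0.81 on the dye-swapped array. It was 1.58-fold lower in the fit, with a limma adjusted p of 0.00308, and was called under all 16 alternatives. H2-DMb1, a DM beta chain, gave -0.36, -0.52, -0.50, -0.60 and -0.10 in mice 1 to 5 and -0.60 on the dye-swapped array. Mouse 5 was close to wild type and the other arrays were lower, for a fitted -0.49 (limma adjusted p = 0.0146). In all 6 of these genes mouse 4 was the lowest mouse and mouse 5 the highest. With the scanner software's ratios, 4 of them kept their size but missed the threshold: H2-Aa at -0.71 (adjusted p = 0.0513), H2-Eb1 at -0.53 (0.0613), Cd74 at -0.59 (0.0636) and H2-DMb1 at -0.55 (0.0669). Cd74 also missed it with median centring, at an adjusted p of 0.0546.

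The DO chains, which restrain DM, did not pass the test. H2-Ob read -0.23 with all arrays below wild type (limma adjusted p = 0.0622), and H2-Oa read -0.19 (limma adjusted p = 0.0694). The H2-Oa mice lay from -0.05 to 0.10 and the dye-swapped array at -0.40, so its fitted value came from the pool. Ciita, the class II transactivator, gave 0.13, 0.05, -0.21, -0.59 and 0.19 in mice 1 to 5 and 0.50 on the dye-swapped array. The mice lay on both sides of wild type, and the fitted 0.20 ± 0.14 (SE) had a limma adjusted p of 0.39. Its mean log2 signal was 7.07 ± 0.32 in Fra-1hep and 7.16 ± 0.23 in wild type (SD, n = 4 hybridisations each). Of 9 further class II genes tested, which include regulatory factor X and NF-Y subunits, 1 fell and none rose, with a median of 0.01. It was Cd83, which stabilises class II at the surface, with a fitted -0.44 and a limma adjusted p of 0.0112. H2-DMb2, H2-Eb2 and Rfx5 were too dim to test, and H2-Ea had no named probe.

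Class medians set the groups side by side without a test. Class II medians were -0.44, -0.52, -0.50, -0.70 and -0.29 in mice 1 to 5 and -0.51 on the dye-swapped array. Class I chain medians were -0.17, -0.23, -0.21, -0.18 and 0.01 in mice 1 to 5 and -0.27 on the dye-swapped array. Immunoproteasome medians were -0.39, -0.33, -0.43, -0.33 and -0.24 and -0.25, and peptide-loading medians -0.30, -0.27, -0.36, -0.32 and -0.21 and -0.25. Class II was lower than class I chains on all 6 arrays. In mouse 5 the class II median was the nearest to wild type of the 5 mice, and in mouse 4 the farthest, whereas loading and immunoproteasome medians were lowest in mouse 3 and highest in mouse 5.

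**Figure D3:**
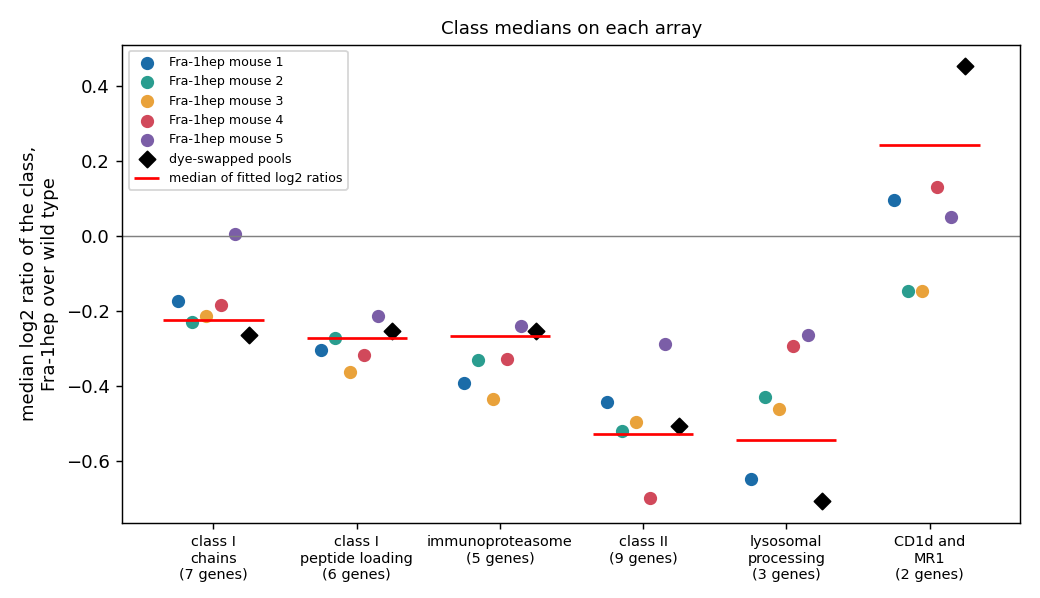
Median log2 ratio of Fra-1hep over wild type over the members of each class, with 1 point per array and the median of the fitted ratios. Class II lies below the class I chains on all 6 arrays; the medians of the 2 genes of the CD1d and MR1 group lie on both sides of 0.

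Lysosomal processing genes fell in 2 of 3 cases. Ifi30 encodes GILT, a thiol reductase that unfolds antigens in the lysosome. It gave -0.77, -0.72, -0.71, -0.47 and -0.47 in mice 1 to 5 and -0.85 on the dye-swapped array. This was the lowest fitted ratio of the 32 members, -0.73 ± 0.08 (SE), or 1.65-fold lower with a limma adjusted p of 0.00154, and it was called under all 16 alternatives. Ctss, or cathepsin S, which cleaves the invariant chain in antigen-presenting cells, gave -0.65, -0.43, -0.46, -0.29 and -0.14 in mice 1 to 5 and -0.71 on the dye-swapped array. All arrays were below wild type with mouse 5 nearest to it, and the fitted -0.54 had a limma adjusted p of 0.00987 (0.0541 with the scanner software's ratios). Lgmn, or asparaginyl endopeptidase, gave -0.37, -0.36, -0.31, -0.08 and -0.26 in mice 1 to 5 and 0.06 on the dye-swapped array. The mice were below wild type and the pool slightly above it, so the fitted -0.10 did not pass (limma adjusted p = 0.409); it was 0.06 with median centring and -0.26 from the mice alone, which was called at 0.0207. Among 11 further lysosomal genes tested, 3 fell and 2 rose, with a median of -0.11. Those that fell were Ctsc, or dipeptidyl peptidase 1, at -0.84, the cystatin C gene Cst3 at -0.29 and the protective protein gene Ctsa at -0.22. The tetraspanin gene Cd63, at 0.53, and Ctsl, or cathepsin L, at 0.29, rose.

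Mr1, which presents vitamin B metabolites to mucosal-associated invariant T cells, was the single member that rose. It gave 0.09, 0.08, 0.09, 0.36 and 0.46 in mice 1 to 5 and 0.56 on the dye-swapped array. All arrays were above wild type, with mice 4 and 5 and the pool clearly higher than mice 1 to 3, and the fitted ratio was 0.41 ± 0.09 (SE), 1.32-fold higher with a limma adjusted p of 0.0219. The call held under all 16 alternatives, and the value from the mouse arrays alone was 0.25. Cd1d1, which presents lipids to NKT cells, gave 0.10, -0.38, -0.38, -0.10 and -0.36 in mice 1 to 5 and 0.34 on the dye-swapped array. The pool and mouse 1 lay above wild type and the other mice below it, and the fitted 0.08 did not pass (limma adjusted p = 0.661); from the mice alone it was -0.18 (adjusted p = 0.156).

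Genes around the members were read from lists of related genes. Over all 79 further pathway genes tested, 19 fell (24.1%) and 5 rose. The shares over all genes, 6.51% lower and 5.97% higher, are the background for each pathway list in this text. Of 12 further class I and class I-like genes 3 fell and 1 rose. H2-Q1 rose, with 1.10, 0.98, 0.96, 0.30 and 0.89 in mice 1 to 5 and 0.76 on the dye-swapped array (fitted 0.79, limma adjusted p = 0.0103). It lay above wild type on all arrays, unlike the neighbouring H2-Q4 and H2-Q7. Those that fell were the protein C receptor gene Procr at -0.61, H2-Q6 at -0.33 and H2-Q2 at -0.29. Among 8 folding partners in the endoplasmic reticulum 1 fell, the calreticulin gene Calr at -0.30 (limma adjusted p = 0.0454), and none rose.

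The interferon-gamma axis, which drives both presentation pathways, had 9 of 17 genes lower and none higher, with a median of -0.27. The chemokine gene Cxcl9 gave -2.34, -1.86, -1.88, -2.58 and -0.77 in mice 1 to 5 and -1.56 on the dye-swapped array. Mouse 4 was the lowest mouse and mouse 5 the highest, as in the class II genes, and the fitted ratio was -1.72 (limma adjusted p = 0.00851). Cxcl10 read -1.61 and the guanylate-binding protein gene Gbp3 -0.84, both called. The next 2 genes were chosen after their values were seen. Irf1, which acts on Tap1, Psmb9 and the class I promoters, read -0.43 with mice from -0.50 to -0.14, and -0.52 on the dye-swapped array (limma adjusted p = 0.0114). Ifng itself read -0.21 and did not pass (limma adjusted p = 0.165).

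Of the 32 members 18 lie in the MHC on chromosome 17. Between Tapbp and H2-M3, in the gene order of RefSeq on GRCm38.p6, 18 members, 12 other H2 genes and 100 other genes were tested. The other H2 genes were grouped by symbol and include H2-Ke6, at 0.05, which does not encode an MHC chain. Of the members 10 fell and none rose, with a median of -0.28. Of the other H2 genes 2 fell and 1 rose, with a median of -0.11. The genes of other kinds had 10 lower and 7 higher, 17% called beside 12.5% over all genes, and a median of 0.00. Neighbours within the class II block, Psmb9, Tap1, Psmb8 and Tap2, read -0.27, -0.49, -0.31 and -0.23 in that order, of which Psmb9 did not pass. The members outside this interval included B2m, Cd74, Ciita, Ifi30, Ctss and Mr1.

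**Figure D4:**
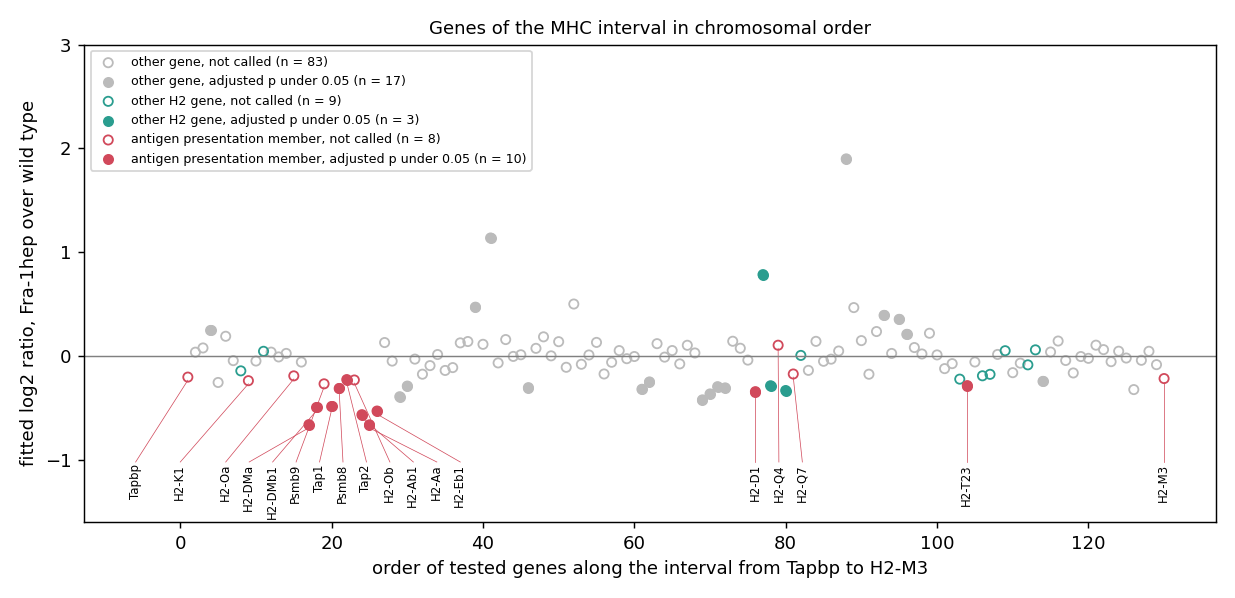
Fitted log2 ratios of Fra-1hep over wild type for the tested genes from Tapbp to H2-M3, in chromosomal order. Members of the antigen presentation set are red, other H2 genes green and the remaining genes grey; filled points passed adjusted p under 0.05. The members cluster below 0 in the class II block, while genes between the blocks lie on both sides.

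Over all genes 6.51% fell and 5.97% rose, the background for each marker list below. Macrophage and Kupffer cell markers fell in 11 of 13 tested and none rose, with a median of -0.58. Their medians were -0.73, -0.86, -0.84, -0.42 and -0.34 in mice 1 to 5 and -0.48 on the dye-swapped array, and Folr2 and Cd5l were the lowest called, at -0.81 and -0.75. Mice 2 and 3 were the lowest for these markers, whereas mouse 4 was the lowest for class II, and mouse 5 was the mouse nearest to wild type in both. Of the markers named below for dendritic, B, endothelial, T and NK cells that fell, Ccr7 and Gzma also had mouse 4 lowest and mouse 5 highest. Itgax, Clec10a and Cd79b had mouse 1 lowest, Ms4a1, Cd3d and Clec4g mouse 2, and Oit3 mouse 3. In Ms4a1 and Clec10a mouse 4 was the highest mouse. The summed normalised signal of the list ran from 50585 to 79310 in Fra-1hep, against 92954 to 106430 in wild type. For this sum and those below, the wild-type range comes from repeated hybridisations of pooled RNA and does not show the spread between animals. Cd68 had no named probe. Dendritic cell markers fell in 3 of 6 tested, with Itgax at -0.94 and Ccr7 at -0.48, and their sums overlapped, at 17873 to 41560 in Fra-1hep, against 18359 to 31515 in wild type. By far the brightest probe in that sum was Siglech, named for this reason after its values were seen, with a mean log2 signal of 14.58 in Fra-1hep and 14.40 in wild type. Its fitted ratio was 0.13 and did not pass (limma adjusted p = 0.352), with all 6 arrays at or above wild type, so the sum mostly reads this probe. Xcr1 and Cd209a were too dim to test, and Zbtb46 had no named probe. Among 6 B cell markers 2 fell, Cd79b at -0.72 and Ms4a1 at -0.41, with sums of 860 to 1034 in Fra-1hep, against 1089 to 1183 in wild type; Cd79a and Blk were too dim. Monocyte markers, 4 tested, passed in neither direction, with sums of 4660 to 9169 in Fra-1hep, against 4340 to 5613 in wild type; Ly6c2 had no named probe.

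Sinusoidal endothelial markers, from cells that also present antigen in liver, fell in 7 of 9, with a median of -0.50, led by Clec4g at -0.95 and Oit3 at -0.63. Their sums were 11075 to 17310 in Fra-1hep, against 21711 to 23148 in wild type. Of 10 T and NK cell markers 5 fell, Gzma at -1.50 and Cd3d at -0.40 among them, with sums of 5937 to 9489 in Fra-1hep, against 6382 to 10191 in wild type; Klrb1c and Ncr1 were too dim and Trac had no named probe. Neutrophil markers rose in 8 of 9, with a median of 2.39, led by S100a9 at 3.53 and Mpo at 3.48, and sums of 37665 to 88455 in Fra-1hep, against 24501 to 30058 in wild type. Of 9 hepatocyte markers Pck1, at 1.19, rose and Alb, at -0.65, and Apoa1 fell; the Alb mice read -0.46 to 0.07 and the dye-swapped array -1.08; Tf had no named probe. The part of these cell populations in the changes of the class I and class II genes was not tested.

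**Figure D5:**
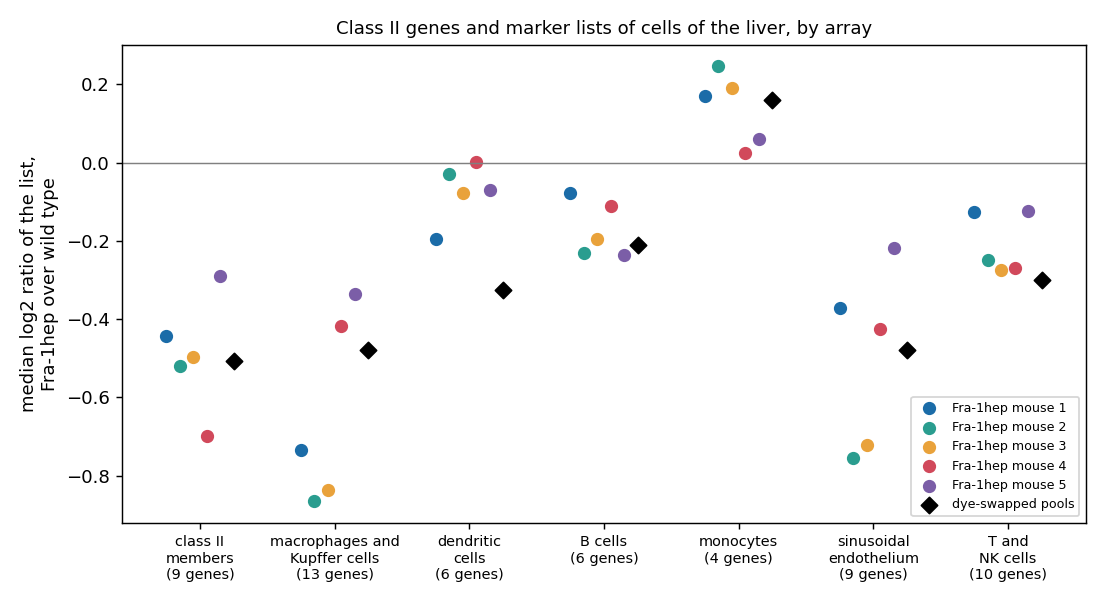
Median log2 ratio of Fra-1hep over wild type on each array for the 9 class II genes and for 6 marker lists of liver cell types, with 1 point per array. Class II, macrophage, endothelial, B cell, and T and NK cell medians lie below 0 on all 6 arrays, and monocyte medians above 0. Mouse 4 is lowest for class II, and mice 2 and 3 are lowest for the macrophage and endothelial lists. Mouse 5 is the mouse nearest to 0 for class II and for the macrophage and endothelial lists.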

How the data were processed

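Liver RNA of 5 Fra-1hep mice and 1 Fra-1hep pool was measured against wild-type pools on 6 Agilent 2-colour arrays of 62976 spots. The authors' scanner files hold spot intensity values, background values and flags, extracted with Agilent Feature Extraction 10.7 per the submitters' processing notes and release 10.7.3.1 as written in the headers. The deposited series table has log2 values that equalled the log2 ratio of the Cy5 over Cy3 processed signals, not centred, with column medians of -0.18 to 0.06 and the dye-swapped column turned; it served as an alternative, called the scanner software's ratios. The arrays' coordinates are of an older build than GRCm38.p6, so only names were used, through RefSeq accessions.

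Median spot signals were corrected by normexp (offset 50) with the median local background and normalised within arrays by loess in limma 3.58.1 (R 4.3.3); signals per channel also had average intensities quantile-normalised between arrays. Control spots and the 379 to 572 spots per array marked as outliers were left out. Probes well above background in a channel on at least 3 arrays were kept (30110), and of 26056 probes with 1 symbol the brightest stood for each gene; 13955 of the 22848 genes tested have a symbol. The fit had a genotype term and a dye constant, with mice 2 and 3 averaged (residual df 3, prior df 4.67), and its test was 2-sided. P-values measure the spread between these mice, and the number of arrays limits the precision; the dye-swapped array has no replicate. The fit was tested on simulated data. Alternatives changed the offset, normalisation, filter, probe rule, variance model, dye term, slide block and the mice included.

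All members are named; from further lists the called genes of largest change, at most 3 in each direction, and from marker lists at most 2, are named. Members and lists were chosen with earlier results of these data known.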

Additional observations from a re-analysis of the deposited data

How the results depend on the processing

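The 32 members were refitted under 16 alternatives, which gave 512 values: 452 kept direction and side of the threshold, 37 lost the call, 19 gained it and 4 changed sign. No member that was called changed sign, and 5 of the 18 called, Tap1, H2-Ab1, H2-DMa, Ifi30 and Mr1, were called throughout. The sign changes were Lgmn at 0.056 with median centring, and Ciita at -0.086, H2-Oa at 0.020 and Cd1d1 at -0.18 from the mouse arrays alone. The scanner software's ratios called 8 members, 10 further pathway genes and 1545 genes in all, against 18, 24 and 2851. Median centring called 10 members and 15 further pathway genes, and its count over all genes is not set beside these. Its class medians were -0.066 for class I chains, -0.16 for peptide loading and -0.11 for the immunoproteasome. The mouse arrays alone, without a dye term, called 21 members (20 lower), 39 further pathway genes and 6099 genes (11.5% lower, 15.1% higher), with a CD1d and MR1 median of 0.033. With the slide as a fixed block the immunoproteasome median was -0.35. The cause of these differences was not tested. Leaving out each mouse in turn gave 14 to 18 members called, 18 to 23 further pathway genes and 2319 to 2719 genes. No paired analysis was possible because the same wild-type pool stands against every mouse, and no replicate numbers are shared between genotypes; each ratio already sets a sample against the pool on its own array. All 5 members with several probes kept 1 sign across their probes.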

Other observations

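Costimulatory and checkpoint genes, which accompany antigen display, were measured for 6 of 8 listed genes, of which 2 fell and 1 rose. Cd274, which encodes the checkpoint ligand PD-L1, gave -0.74, -0.56, -0.73, -0.80 and -0.52 in mice 1 to 5 and -0.69 on the dye-swapped array, for a fitted log2 ratio of Fra-1hep over wild type of -0.68 (limma adjusted p = 0.00118). Cd40, a receptor through which T cells license antigen-presenting cells, read -0.29 (limma adjusted p = 0.0339). Icosl, the ligand of the T cell receptor ICOS, rose with 0.82, 0.84, 0.94, 0.29 and 0.29 in mice 1 to 5 and 0.50 on the dye-swapped array (fitted 0.54, limma adjusted p = 0.0331). Pdcd1lg2 and Tnfsf9 were too dim to test.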
